A study of Mus musculus with 4 samples.

Results

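The genes described here encode potassium channels and their auxiliary subunits. They were taken from the gene rows whose symbol starts with Kcn and a lower-case letter, after 5 antisense rows had been left out. Of 94 such rows, the 76 with at least 50 unique molecular identifiers (UMIs, each standing for 1 captured transcript) over all 4 libraries were kept, out of 32285 genes in the matrices. Of the 18 rows under that minimum, 2 (Kcnj1 and Kcnk16) had no UMI. The genes just inside the minimum were Kcna3 (50 UMIs) and Kcnj6 (52 UMIs), and those just outside were Kcnj11 (46 UMIs) and Kcnk4 (37 UMIs). The rule used no measured level beyond this minimum, but it was set with earlier results of these data known. They comprised 32 voltage-gated subunits (Kcna, Kcnb, Kcnc, Kcnd, Kcng, Kcnh, Kcnq, Kcns), 11 inward rectifiers (Kcnj), 10 tandem-pore leak channels (Kcnk), 8 channels opened by calcium or sodium (Kcnn, Kcnma, Kcnt, Kcnu) and 15 auxiliary subunits (Kcnab, Kcne, Kcnip, Kcnmb, Kcnrg). Their 271693 UMIs made up 0.0996% of all UMIs.

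The data were droplet single-cell RNA sequencing of the 3′ ends of transcripts from hippocampus and sensory cortex of wild-type (WT) mice, with 1 library for each tissue and treatment. The treatments were DOCA-salt (deoxycorticosterone acetate with a salt load, a standard way to raise blood pressure in rodents) and sham. The labels give 3 mice per group; whether their cells were pooled, the age of the mice, and the dose and duration are not given in the sources used here. Groups follow the library titles, and the treatment field contradicts the title in 2 libraries, cortex DOCA-salt and hippocampus sham. If that field were right, treatment would be the same within each tissue and every comparison of treatments below would compare like with like. With 1 library per group no test between groups exists, so a ratio below compares 2 libraries, and its 95% interval covers counting error only.

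Potassium channels let potassium leave or enter cells along its gradient and so set the resting potential. In the brain, astrocytes take up the potassium that active neurons release, largely through inward rectifiers; voltage-gated channels repolarise neurons after a spike. Mural cells of vessels use channels gated by cell metabolism to relax, and microglia use leak channels to hold their resting potential and to survey the tissue.

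The libraries held 11159 to 11402 barcodes each and 66824217 to 70173987 UMIs, with a median of 5599.5 to 5891 UMIs per cell kept. Cells were assigned to 18 classes by a gate on 7 marker genes per class, none of them a potassium channel gene, and 88.7% to 90.7% of the cells kept fell into exactly 1 class. The oligodendrocyte class held 14806 cells, the astrocyte class 10094, the microglia class 10004 and the endothelial class 3188; no other class reached 400. A class cut by a score is a range of cells: the share lying near the cut was 2.68% for oligodendrocytes, 5.18% for astrocytes, 4.48% for microglia, 10.3% for endothelial cells and 17.3% for pericytes. Between any pair of libraries 94 to 105 barcodes were shared. The hippocampus sham library stood apart in holding 263 of the 269 choroid plexus cells. The 205 cells of the neuron class carried Reln at 988 to 1866 counts per 1000000 UMIs of the class and library (CPM), with Trp73 and Lhx1, genes of Cajal-Retzius cells, while Slc17a7 of excitatory and Gad1 and Gad2 of inhibitory neurons were at 0. Neuronal values below therefore belong to cells with Cajal-Retzius markers. Levels are CPM and are compared only for the same gene between classes or libraries, since counts of transcript ends say nothing of channel protein.

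Potassium channel RNA was distributed unevenly over the classes. Summed over the 76 genes it came to 4043 and 3653 CPM in neurons of the hippocampus DOCA-salt and sham libraries, and to 1879 to 2253 CPM in astrocytes, 1477 to 2110 CPM in pericytes and 783 to 881 CPM in oligodendrocytes over the 4 libraries. Microglia held 353 to 387 CPM and endothelial cells 186 to 257 CPM, and the ranges of these last 5 classes did not overlap except between astrocytes and pericytes. By the mean over libraries, neurons had the highest level of 20 members, oligodendrocyte precursors of 14 and astrocytes of 9. These are 26.3%, 18.4% and 11.8% of the members, beside 9.27%, 11.2% and 6.77% of all genes. Oligodendrocytes and microglia each led 2 members (2.63%, beside 4.67% and 5.58% of all genes). Small classes carry much of this count: with a class averaged only over libraries holding at least 20 of its cells, which leaves out the 42 precursors, the leading class was the same for 50 of 76 members, with 24 for neurons and 13 for astrocytes. The members with at least 50 UMIs in their leading class were 12 for neurons, 9 for astrocytes, 4 each for precursors and choroid plexus, 2 each for oligodendrocytes and microglia, and 1 each for endothelial, ependymal and T or NK cells and pericytes; the remaining members had a leading class that rests on fewer UMIs. Among the 4 large classes alone, astrocytes led 37 members, microglia 15, and endothelial cells and oligodendrocytes 12 each. The share of all genes is not given for this count or for that with at least 20 cells per library. Neither is therefore read as an excess among the members.

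**Figure D1:**
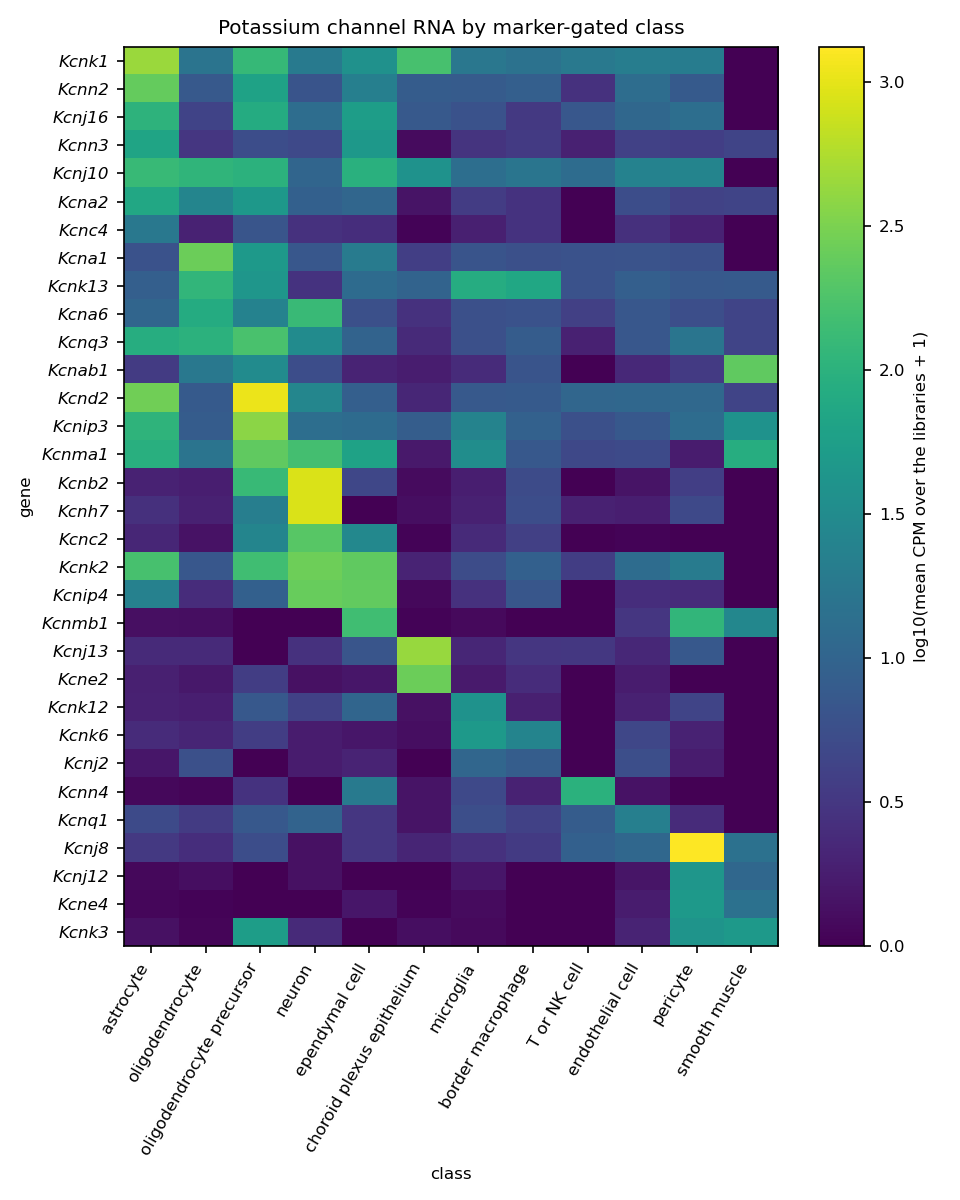
Heat map of 32 potassium channel genes (rows) over 12 marker-gated classes (columns); colour is log10 of the mean CPM over the 4 libraries plus 1. The bright cells lie in different columns for different genes, such as Kcnk1 and Kcnn2 in astrocytes, Kcna1 in oligodendrocytes, Kcnk6 and Kcnk12 in microglia, Kcnj8 in pericytes and Kcne2 and Kcnj13 in choroid plexus; columns of precursors (42 cells) and smooth muscle (34 cells) rest on few cells.

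Astrocytes led the leak channel Kcnk1, the calcium-activated Kcnn2 and Kcnn3, and the inward rectifiers Kcnj16 and, in the mean, Kcnj10. Kcnk1 measured 320, 345, 478 and 665 CPM in astrocytes of the hippocampus with DOCA-salt and with sham and of the cortex with DOCA-salt and with sham, the order used throughout. Both cortex libraries were above both hippocampus libraries. Astrocytes held 90.7% of all gated Kcnk1 UMIs, and the next class, choroid plexus, was at 161 CPM on average. Kcnn2, a small-conductance channel opened by calcium through calmodulin, measured 222, 287, 194 and 250 CPM, and astrocytes held 91.8% of its gated UMIs; the sham library was the higher in each tissue. Kcnn3, of the same family, measured 59.6, 52.6, 81.6 and 70.3 CPM. The mechanosensitive leak channel Kcnk2 measured 165, 145, 173 and 158 CPM in astrocytes, below neurons (mean 274 CPM) and ependymal cells (229 CPM). Voltage-gated members with an astrocyte lead were Kcna2 (72.6, 85.8, 72.6 and 66.7 CPM), Kcnc4 (17.6, 15.3, 18.4 and 15.9 CPM) and the silent subunit Kcng4 (7.52, 9.95, 2.38 and 5.50 CPM). Kcnd2, which carries a fast inactivating current in neuronal dendrites, measured 253, 387, 269 and 198 CPM in astrocytes.

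The glial inward rectifier Kcnj10, whose product carries most potassium uptake by astrocytes, was shared between astrocytes and oligodendrocytes, whereas its assembly partner Kcnj16 was not. Kcnj10 measured 153, 174, 95.7 and 87.7 CPM in astrocytes and 105, 123, 100 and 115 CPM in oligodendrocytes. The 2 classes thus changed order between the tissues. The ratio of astrocytes to oligodendrocytes was 1.45 (95% counting interval 1.36 to 1.55) and 1.41 (1.31 to 1.52) in the hippocampus libraries, and 0.955 (0.896 to 1.02) and 0.765 (0.720 to 0.814) in the cortex libraries. Kcnj16 measured 93.0, 102, 112 and 106 CPM in astrocytes and 1.90, 1.28, 5.55 and 4.24 CPM in oligodendrocytes, that is 1.25% to 4.94% of the astrocyte level. The 7 astrocyte markers lay at 0.640% to 7.04% of their astrocyte level in the same oligodendrocytes. In the 42 oligodendrocyte precursors Kcnj10 had a mean of 102 CPM and Kcnj16 of 82.6 CPM, and Kcnj16 had a mean of 53.1 CPM in ependymal cells. Kcnj10 lies on chromosome 1 (GRCm38, 172341210 to 172374085, plus strand), 11892 bases from Kcnj9, which held 19 UMIs in neurons, its leading class, and 0.182 CPM on average in astrocytes. Its promoter is shown because the gene had similar levels in 2 large glial classes. The 250 bases before the RefSeq start (GRCm38.p6, chr1:172340960-172341209, plus strand) hold 2 CCAAT boxes (CCAAT) and 2 GC boxes (GGGCGG), in capitals, searched on both strands:

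Kcnj10: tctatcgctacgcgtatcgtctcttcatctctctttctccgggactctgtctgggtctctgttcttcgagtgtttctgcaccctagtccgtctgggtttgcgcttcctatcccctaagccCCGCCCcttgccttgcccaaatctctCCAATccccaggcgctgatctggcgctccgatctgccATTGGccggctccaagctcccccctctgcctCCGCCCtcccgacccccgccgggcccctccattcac

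Among all 32851 mouse promoter windows of this length, 33.8% held a CCAAT box and 32.7% a GC box; among the 81 windows of the 57 members with an entry, the shares were 29.6% and 45.7%.

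Oligodendrocytes led Kcna1, a voltage-gated subunit known from the axon beside the node of Ranvier, and the leak channel Kcnk13. Kcna1 measured 301, 278, 241 and 234 CPM in oligodendrocytes, and 97.0% of its gated UMIs lay there. The next class, oligodendrocyte precursors, had a mean of 47.5 CPM, from 18 UMIs. Kcna6, its neighbour on chromosome 6 at a distance of 61945 bases, measured 88.1, 81.2, 80.1 and 78.5 CPM in oligodendrocytes, second to neurons with a mean of 129 CPM. Kcna2 measured 24.0, 26.1, 22.1 and 28.3 CPM, at 30.4% to 42.5% of its astrocyte level. Kcna5, 104985 bases from Kcna1, held only 7 UMIs in its leading class, smooth muscle. The M-current subunit Kcnq3 measured 118, 94.6, 106 and 86.7 CPM in oligodendrocytes beside 88.4, 126, 42.3 and 89.2 CPM in astrocytes. Kcnab1, a cytoplasmic beta subunit of Kcna channels, measured 22.0, 13.7, 18.0 and 13.1 CPM in oligodendrocytes and 2.01 to 3.32 CPM in astrocytes.

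Kcnk13 and Kcnk12 are close relatives in the tandem-pore family, yet their RNA had different distributions. Kcnk13 measured 117, 118, 104 and 107 CPM in oligodendrocytes and 88.1, 82.0, 89.5 and 81.9 CPM in microglia, with 71.6 CPM on average in border macrophages. The oligodendrocyte level was the higher in each library, by 1.16-fold (1.08 to 1.25) in cortex DOCA-salt to 1.44-fold (1.35 to 1.54) in hippocampus sham. Kcnk12 measured 40.8, 38.7, 37.3 and 35.8 CPM in microglia and 0.688 to 1.01 CPM in oligodendrocytes, and 92.7% of its gated UMIs lay in microglia. In microglia Kcnk13 stood at 69.4% to 86.2% of its oligodendrocyte level, and the 7 oligodendrocyte markers, of which none was at 0, at 1.82% to 6.84% of theirs. The microglia class also led Kcnk6, a leak channel known from the inflammasome pathway of macrophages, with 37.1, 52.9, 40.3 and 53.9 CPM; both sham libraries were above both DOCA-salt libraries. Border macrophages followed with 24.4 CPM.

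Other immune-cell channels were found at low counts. Kcnn4, the calcium-activated channel of lymphocytes, measured 98.8 CPM on average in the T or NK class and 90.7 CPM in monocytes or dendritic cells, from 53 and 28 UMIs, and 3.84 CPM in microglia. Kcna3, the voltage-gated channel best known from T cells, had 50 UMIs in the 4 libraries and none in the 130 T or NK cells, and its 14 UMIs in microglia gave 0.118 to 0.469 CPM. Kcnj2, an inward rectifier of macrophages and microglia, measured 10.98, 11.02, 10.3 and 7.21 CPM in microglia. Its mean was higher in neutrophils, where it rests on 6 UMIs. Microglia also held the calcium-activated Kcnma1, with 29.3, 37.2, 31.7 and 34.9 CPM, at 30.4% to 40.8% of the astrocyte level. The calcium-binding channel subunit Kcnip3 measured 23.3, 28.5, 19.3 and 23.4 CPM there.

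**Figure D2:**
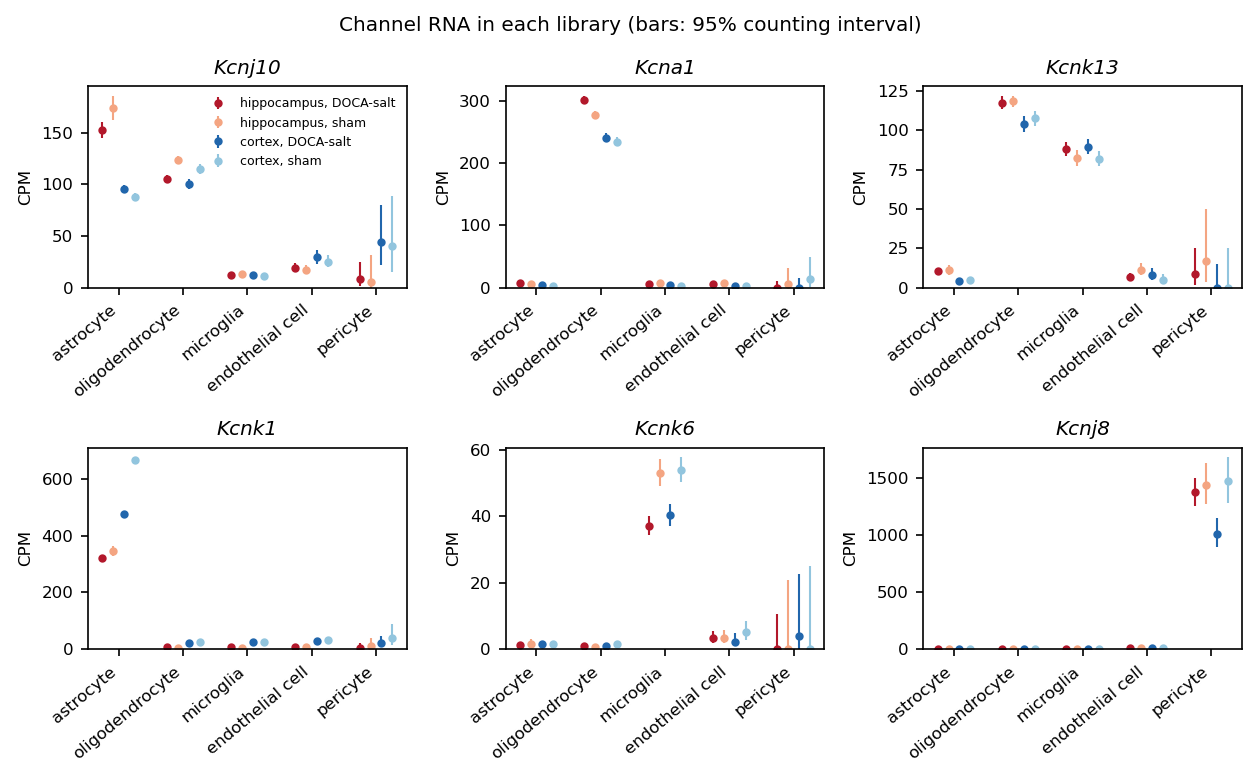
Level (CPM) of 6 channel genes in 5 classes, 1 point per library with its 95% counting interval. Of these 5 classes Kcna1 is highest in oligodendrocytes, Kcnk13 in oligodendrocytes and microglia, Kcnj10 in astrocytes and oligodendrocytes, Kcnk1 in astrocytes (both cortex libraries above both hippocampus libraries), Kcnk6 in microglia (both sham libraries above both DOCA-salt libraries) and Kcnj8 in pericytes.

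In the vessel wall, pericytes were set apart by Kcnj8, the pore of the vascular channel closed by ATP. Kcnj8 measured 1373, 1441, 1013 and 1472 CPM in the 142, 82, 104 and 65 pericytes of the 4 libraries. Endothelial cells were at 7.65 to 11.9 CPM, and the pericyte level was 85.2-fold (58.5 to 128) to 193-fold (124 to 314) above them over the libraries. Smooth muscle was at 53.7 CPM from 4 UMIs in hippocampus sham, the 1 library with at least 20 such cells. The regulatory subunit that pairs with Kcnj8, Abcc9, measured 746, 749, 659 and 767 CPM in pericytes and 7.30 to 10.5 CPM in endothelial cells. Kcnj8 and Abcc9 are neighbours on chromosome 6, with 16248 bases between them. The gate understates the number of cells with Kcnj8: of its 4483 UMIs, 39.2% lay in gated cells and 52.3% in the 747 cells that passed both the pericyte and the endothelial gate, which were left out. Pericytes also led the inward rectifier Kcnj12 (28.9, 51.0, 56.9 and 33.9 CPM from 38 UMIs) and the modulatory subunit Kcne4 (43.4, 51.0, 65.1 and 33.9 CPM from 45 UMIs). The lead for Kcne4 passed to smooth muscle with only libraries of at least 20 cells, and to fibroblasts with the libraries pooled. Of all Kcne4 UMIs, 40.6% lay in gated cells and 44.4% in cells past both the pericyte and the endothelial gate. Kcnmb1, the beta subunit that raises the calcium sensitivity of Kcnma1 in vessels, measured 86.7, 96.4, 65.1 and 197 CPM in pericytes. It was at 157 and 110 CPM in ependymal cells of the hippocampus libraries, but it lies within Kcnip1 on the opposite strand and the counting strand is not given. Endothelial cells led 1 member, Kcnq1, which forms slow voltage-gated channels with Kcne subunits, with 16.9, 26.3, 18.0 and 23.3 CPM. Kcnq1 overlaps its antisense transcript Kcnq1ot1, and the reads of both may not have been told apart. Kcnab1 reached 457 CPM (34 UMIs) in the 24 smooth muscle cells of hippocampus sham.

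Choroid plexus epithelium, which makes cerebrospinal fluid, led Kcnj13, Kcne2, Kcnh1 and Kcnh2. In hippocampus sham, the only library with 20 or more such cells, Kcnj13 measured 692 CPM (2206 UMIs) and Kcne2 measured 271 CPM (865 UMIs); both are known from the apical membrane of this epithelium. Kcnh1 and Kcnh2, voltage-gated channels of the ether-a-go-go family, measured 49.6 and 27.6 CPM from 158 and 88 UMIs. Kcne1, 47853 bases from Kcne2, held 3 UMIs in its leading class. The promoters of Kcnj13, Kcne2 and the pericyte gene Kcnj8 are shown because each of these genes had most of its gated UMIs in 1 small class (87.2%, 85.4% and 68.0%). Windows and motifs are as for Kcnj10; Kcnj13 (chr1:87394730-87394979, minus strand) holds a TATA box (TATAAA) and 2 CCAAT boxes, Kcne2 (first of 2 starts, chr16:92292139-92292388, plus strand) a GC box, and Kcnj8 (chr6:142571615-142571864, minus strand) none of the 6 motifs searched. The other 3 were TAATCC, bound by OTX factors, ACAAAG, bound by SOX factors, and the E-box CACGTG.

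Kcnj13: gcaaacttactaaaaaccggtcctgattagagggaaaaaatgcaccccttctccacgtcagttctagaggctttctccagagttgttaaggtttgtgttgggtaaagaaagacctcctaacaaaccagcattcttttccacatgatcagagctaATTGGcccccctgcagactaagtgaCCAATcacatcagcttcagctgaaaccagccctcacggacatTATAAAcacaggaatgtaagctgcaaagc
Kcne2: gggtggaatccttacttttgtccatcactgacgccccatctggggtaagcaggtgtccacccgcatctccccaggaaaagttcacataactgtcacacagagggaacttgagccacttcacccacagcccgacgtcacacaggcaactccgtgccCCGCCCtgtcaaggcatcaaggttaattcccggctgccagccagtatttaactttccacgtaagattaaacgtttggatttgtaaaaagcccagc
Kcnj8: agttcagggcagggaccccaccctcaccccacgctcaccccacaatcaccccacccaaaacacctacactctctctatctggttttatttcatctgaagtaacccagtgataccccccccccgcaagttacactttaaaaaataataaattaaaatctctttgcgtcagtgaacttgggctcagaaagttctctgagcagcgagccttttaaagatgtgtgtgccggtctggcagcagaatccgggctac

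A TATA box was found in 12.4% of all windows and in 3.70% of the members' windows. The shares of all windows and of the members' windows were 6.25% and 2.47% for TAATCC, 16.5% and 11.1% for ACAAAG, and 6.02% and 7.41% for CACGTG.

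Cells with Cajal-Retzius markers were rich in delayed rectifiers and slowly gated voltage channels. Kcnb2, a delayed rectifier subunit, measured 817 and 706 CPM in the hippocampus DOCA-salt and sham libraries (536 and 485 UMIs), and Kcnh7, an ether-a-go-go-related channel, 808 and 857 CPM (530 and 589 UMIs). Their next classes had means of 126 CPM (precursors) and 136 CPM (immature neurons). Kcnc2, a fast delayed rectifier of rapidly firing neurons, measured 212 and 164 CPM, the M-current subunit Kcnq5 measured 387 and 300 CPM, and the G-protein-gated rectifier Kcnj5 measured 67.1 and 49.5 CPM. Kcna4, an A-type channel of axons, had a mean of 36.8 CPM from 50 UMIs over the 4 libraries. Kcnip4, an auxiliary subunit of Kcnd channels, measured 259 and 241 CPM in neurons and 250 and 207 CPM in ependymal cells of the same libraries. The cortex libraries held 17 and 7 cells of this class and are not compared singly. They do enter, with equal weight, the neuron means over the 4 libraries. In the 42 oligodendrocyte precursors, Kcnd2 had a mean of 1086 CPM (337 UMIs) and Kcnip3 of 376 CPM (115 UMIs), 3.93-fold and 3.49-fold above astrocytes, the next class. Kcnma1 (65 UMIs) and Kcnq3 (54 UMIs) had means of 225 and 166 CPM in precursors. Kcnmb4, the neuronal beta subunit of Kcnma1, had a mean of 68.5 CPM in precursors from 23 UMIs and 0.544 CPM in astrocytes.

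For DOCA-salt against sham, a gene and class pair was counted as different where the ratio of the 2 libraries was at least 1.5-fold and they held at least 50 UMIs together, in the 4 large classes. In hippocampus 10 of 99 member pairs were higher and 9 lower with DOCA-salt, beside 5.51% and 3.19% of the pairs of all genes. In cortex 14 of 101 were higher and 4 lower, beside 5.48% and 2.46%. By class in hippocampus, the pairs higher and lower were 1 and 1 of 25 in microglia (3.99% and 3.74% of all genes), 7 and 2 of 34 in oligodendrocytes (7.66% and 2.53%), 1 and 4 of 30 in astrocytes (4.5% and 3.26%) and 1 and 2 of 10 in endothelial cells (5.77% and 3.29%). In cortex they were 2 and 0 of 23 in microglia (4.81% and 2.11%), 6 and 1 of 29 in oligodendrocytes (6.17% and 2.53%), 4 and 3 of 41 in astrocytes (6.06% and 2.14%) and 2 and 0 of 8 in endothelial cells (4.59% and 3.29%). Many of these pairs lay in a class with little of that gene: among pairs at 20% or more of the level in the highest of the 4 classes, 4 of 61 were higher and 8 lower in hippocampus (3.66% and 2.54% of all genes) and 6 of 64 higher and 4 lower in cortex (3.98% and 2.38%). Choroid plexus is not among these 4 classes, so this limit did not remove its genes. The 8 lower in hippocampus still include Kcnj13 and Kcne2 in oligodendrocytes and Kcnj13 in microglia. In hippocampus sham these stood at 0.666%, 0.844% and 0.587% of their choroid plexus level. A pair that passed the minimum through 1 high library had to differ, so these counts describe only the pairs that passed. The members' median log2 ratio stayed within 0.36 of 0 in each class and tissue, from -0.12 in hippocampus astrocytes to 0.36 in cortex endothelial cells, beside -0.01 to 0.05 for all genes.

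In oligodendrocytes Kcnma1 was higher with DOCA-salt in both tissues. This gene of the large-conductance channel, which calcium and voltage open together, measured 21.6 CPM (534 UMIs) with DOCA-salt and 7.34 CPM (253 UMIs) with sham in hippocampus, and 22.0 CPM (365 UMIs) and 8.33 CPM (161 UMIs) in cortex. The DOCA-salt library was higher by 2.95-fold (2.53 to 3.43) in hippocampus and 2.65-fold (2.19 to 3.20) in cortex. Of 27 members that could be compared in oligodendrocytes of both tissues, 2 were higher in both, Kcnma1 and the sodium-activated Kcnt1, and none was lower in both, beside 2.86% and 0.99% of all genes. Kcnt1 was at 0.725 to 2.05 CPM and its interval included 1 in each tissue (0.915 to 2.88 and 0.919 to 2.77). Kcnma1 in oligodendrocytes stood at 27.1%, 5.999%, 26.7% and 9.74% of its level in astrocytes of the same library. The 7 astrocyte markers, summed, were at 424, 217, 892 and 671 CPM in oligodendrocytes, at a median of 1.67%, 0.891%, 3.91% and 3.37% of their astrocyte level and none at 0; their part in the Kcnma1 result was not tested. Kcnma1 in astrocytes went the other way in hippocampus, with 79.7 CPM against 122 CPM (0.652-fold, 0.586 to 0.726), and was close in cortex, with 82.6 and 85.5 CPM.

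Other oligodendrocyte members differed in 1 tissue by the 1.5-fold rule. Kcnab1 was higher by 1.60-fold (1.41 to 1.81) in hippocampus and 1.37-fold (1.16 to 1.63) in cortex. Kcnn1, a small-conductance calcium-activated channel, was higher by 1.95-fold (1.42 to 2.69) in hippocampus, at 3.97 against 2.03 CPM, and measured 3.32 and 2.69 CPM in cortex. Kcnip3 was higher by 2.01-fold (1.56 to 2.59) in cortex, at 10.4 against 5.17 CPM, and by 1.29-fold (1.05 to 1.60) in hippocampus; the gene stood at 3.75% to 12.03% of its astrocyte level. The members most abundant in this class differed little: Kcna1 by 1.08-fold (1.05 to 1.12) and 1.03-fold (0.985 to 1.07), Kcnk13 by 0.993-fold (0.947 to 1.04) and 0.966-fold (0.906 to 1.03), and Kcnj10 by 0.851-fold (0.810 to 0.894) and 0.875-fold (0.821 to 0.933), each in hippocampus and cortex. Kcnu1, a pH-sensitive relative of Kcnma1 known from sperm, was lower in cortex, at 4.65 against 7.45 CPM (0.624-fold, 0.467 to 0.829), but its log2 ratio went from -0.68 to 0.09 when every cell was thinned to 2000 UMIs. Kcnj13 and Kcne2 had 159 and 79 UMIs in oligodendrocytes of hippocampus sham and 5 and 0 in hippocampus DOCA-salt. They stood there at 0.666% and 0.844% of the choroid plexus level of that library, with 8 choroid plexus genes at 0.479% to 1.17%. The same was seen for Kcnj13 in microglia, with 52 and 5 UMIs.

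In astrocytes the A-type channel Kcnd3 was the 1 member of 30 that was lower with DOCA-salt in both tissues (0.822% of all genes), and none was higher in both (1.43%). It measured 7.90 CPM against 20.7 CPM in hippocampus (0.381-fold, 0.281 to 0.515) and 6.03 CPM against 11.9 CPM in cortex (0.508-fold, 0.412 to 0.624). Both DOCA-salt libraries lay below both sham libraries. Kcnd3 overlaps Gm43847 on its own strand and Kcnd3os on the opposite strand, and their reads may not have been told apart. Kcnq3 was lower by 0.474-fold (0.439 to 0.511) in cortex, from 1031 and 1963 UMIs, and by 0.699-fold (0.631 to 0.776) in hippocampus. In oligodendrocytes Kcnq3 was the higher with DOCA-salt, by 1.24-fold (1.18 to 1.31) and 1.22-fold (1.14 to 1.30). Kcnd2 had opposite directions in the 2 tissues, 0.653-fold (0.615 to 0.693) in hippocampus and 1.36-fold (1.31 to 1.41) in cortex. Kcnn2 was lower in both tissues without reaching 1.5-fold, by 0.773-fold (0.723 to 0.827) and 0.776-fold (0.747 to 0.807). Kcnk1 was at 0.926-fold (0.873 to 0.983) and 0.718-fold (0.701 to 0.736), Kcnj10 at 0.877-fold (0.806 to 0.955) and 1.09-fold (1.03 to 1.16), and Kcnj16 at 0.910-fold (0.816 to 1.02) and 1.06-fold (1.0003 to 1.12), so the uptake pair differed by less than 1.15-fold in either direction.

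Further astrocyte members differed in 1 tissue. In cortex the G-protein-gated rectifier Kcnj3 was higher with DOCA-salt by 2.31-fold (1.90 to 2.83), at 14.9 against 6.45 CPM, and Kcnt1 by 1.89-fold (1.63 to 2.19), at 22.9 against 12.1 CPM. In hippocampus they measured 21.0 and 18.9 CPM, and 24.3 and 21.8 CPM. The silent subunit Kcng4 was lower in cortex, at 2.38 against 5.50 CPM (0.433-fold, 0.311 to 0.596). In hippocampus the leak channel Kcnk10 was higher, at 19.4 against 10.4 CPM (1.87-fold, 1.37 to 2.61), and the Kcnd subunit Kcnip1 lower, at 8.18 against 15.3 CPM (0.534-fold, 0.387 to 0.738).

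**Figure D3:**
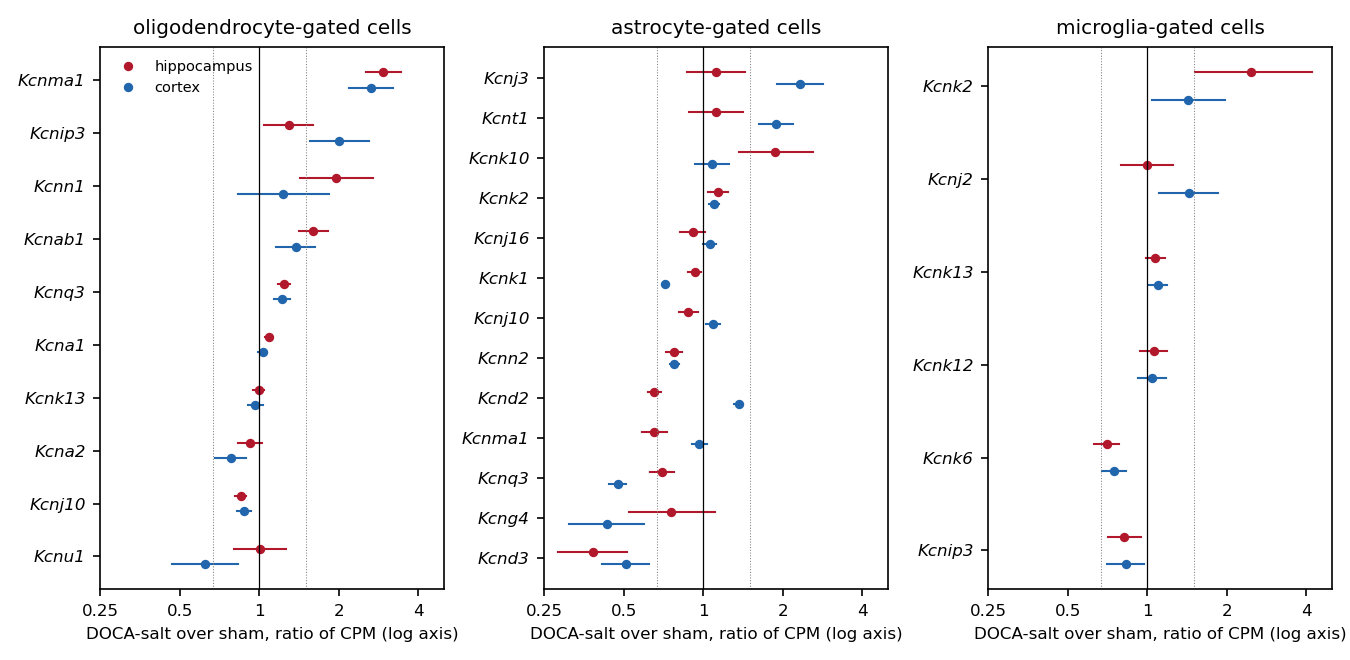
Ratio of CPM with DOCA-salt over sham (log axis) for members in oligodendrocytes, astrocytes and microglia, red for hippocampus and blue for cortex; lines are 95% counting intervals and dotted lines mark 1.5-fold either way. Kcnma1 in oligodendrocytes lies beyond 1.5-fold higher and Kcnd3 in astrocytes beyond 1.5-fold lower in both tissues, while Kcnd2 in astrocytes lies on opposite sides of 1.

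In microglia Kcnk6 was lower with DOCA-salt in both tissues, by 0.702-fold (0.629 to 0.783) and 0.749-fold (0.672 to 0.834), without reaching 1.5-fold. Kcnk13 was at 1.07-fold (0.991 to 1.16) and 1.09-fold (1.01 to 1.18), and Kcnk12 at 1.06-fold (0.9395 to 1.19) and 1.04-fold (0.924 to 1.18). Kcnj2 was at 0.996-fold (0.796 to 1.25) in hippocampus and 1.43-fold (1.11 to 1.85) in cortex. None of 21 members was beyond 1.5-fold in both tissues, beside 1.46% of all genes higher and 0.764% lower. Kcnk2 (72 against 22 UMIs in hippocampus) and Kcnt1 (51 against 10 UMIs in cortex) were higher with DOCA-salt by 2.47-fold (1.52 to 4.19) and 5.22-fold (2.62 to 11.5). The log2 ratio of Kcnk2 was 1.31, and 0.20 when cells that passed more than 1 gate were kept. They stood at 2.57% and 1.18%, and at 15.2% and 5.50%, of their astrocyte level in those libraries. The astrocyte markers Aqp4, Aldoc, Gja1, Gjb6, Slc4a4 and Ntsr2 lay in microglia at 0.906% to 3.37% and 0.674% to 1.60% of their astrocyte level in hippocampus DOCA-salt and sham, and at 2.74% to 8.07% and 1.96% to 5.81% in cortex. The 7th marker, Slc1a3, was at 58.7%, 5.12%, 42.7% and 5.89%. With it the summed list came to 2409, 310, 2427 and 777 CPM with none at 0; its part in these 2 results was not tested.

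In endothelial cells Kcnq1 was lower with DOCA-salt, at 0.642-fold (0.464 to 0.883) in hippocampus and 0.774-fold (0.522 to 1.14) in cortex. None of the 6 members compared in both tissues was beyond 1.5-fold in both (1.3% of all genes higher, 0.995% lower). Kcnn2 was higher in hippocampus, from 45 and 16 UMIs, and Kcnd2 in cortex, from 51 and 30 UMIs. Kcnk13 was lower in hippocampus (0.588-fold, 0.350 to 0.978), at 5.67% with DOCA-salt and 9.57% with sham of its oligodendrocyte level. The 7 oligodendrocyte markers were at medians of 3.61% and 5.74% in the same endothelial cells, and their part was not tested. Kcnn2 and Kcnd2 stood there at 4.82% and 1.58%, and 7.28% and 5.28%, of their astrocyte levels. The astrocyte markers were there at medians of 3.45% and 1.53%, and 6.03% and 4.70%; their part was not tested. In pericytes, which had under 100 cells in some libraries, Kcnj8 was at 0.953-fold (0.817 to 1.11) in hippocampus and 0.688-fold (0.571 to 0.829) in cortex, and Abcc9 at 0.996-fold (0.805 to 1.24) and 0.859-fold (0.672 to 1.10). Kcnmb1 was at 0.899-fold (0.480 to 1.74) in hippocampus and 0.331-fold (0.168 to 0.629) in cortex, from 16 and 29 UMIs.

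Between the tissues, 22 of 101 member pairs were higher and 22 lower in hippocampus sham than in cortex sham, beside 5.52% and 5.41% of all pairs. Of the DOCA-salt pairs, 15 of 106 were higher and 25 lower, beside 3.5% and 4.64%. By class, the sham pairs higher and lower in hippocampus were 4 and 6 of 24 in microglia (6.83% and 5.29% of all genes), 2 and 8 of 34 in oligodendrocytes (3.02% and 5.7%), 15 and 4 of 34 in astrocytes (8.3% and 5.61%) and 1 and 4 of 9 in endothelial cells (3.53% and 4.93%). The DOCA-salt pairs were 2 and 8 of 27 in microglia (2.96% and 5.67%), 2 and 8 of 30 in oligodendrocytes (2.4% and 4.33%), 11 and 3 of 40 in astrocytes (5.81% and 3.83%) and 0 and 6 of 9 in endothelial cells (2.41% and 4.82%). With pairs at 20% or more of the highest class only, the counts were 15 higher and 5 lower of 62 (3.57% and 2.92%), and 9 higher and 3 lower of 65 (2.76% and 2.14%). The 15 include Kcnj13 and Kcne2 in oligodendrocytes and Kcnj13 in microglia. In hippocampus sham these stood at 0.666%, 0.844% and 0.587% of their choroid plexus level. The members' median log2 ratio in astrocytes was 0.52 in the sham and 0.29 in the DOCA-salt pair, with 0.00 and -0.01 for all genes. If the treatment field of the labels were right, each of these pairs would differ in treatment as well as in tissue.

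Astrocytes carried most of the differences between tissues at a gene's own level. Of 34 members, 7 were higher in hippocampus in both pairs (3.18% of all genes), among them Kcna1, Kcna6, Kcng4, Kcnip1, Kcnj10 and Kcnk13, and 3 were lower in both (1.93%), namely Kcnc1, Kcnd1 and Kcnj14. Kcnj10 was higher by 1.98-fold (1.83 to 2.15) in sham and 1.59-fold (1.49 to 1.70) with DOCA-salt, while in oligodendrocytes it was at 1.08-fold (1.02 to 1.13) and 1.05-fold (0.985 to 1.12). Kcnj16 was close to even in astrocytes, at 0.961-fold (0.870 to 1.06) and 0.827-fold (0.768 to 0.890). Kcnip1, the subunit of Kcnd channels, measured 8.18 and 15.3 CPM in hippocampus and 1.35 and 0.909 CPM in cortex, higher by 16.9-fold (10.2 to 29.2) in sham and 6.05-fold (4.01 to 9.33) with DOCA-salt. Kcnip1 overlaps 4 other genes, among them Kcnmb1 on the opposite strand, and their reads may not have been told apart. Kcng4 was higher by 1.81-fold (1.27 to 2.55) and 3.16-fold (2.22 to 4.52). The inward rectifier Kcnj14 was lower, at 2.69 against 7.32 CPM in sham (0.368-fold, 0.192 to 0.648) and 3.62 against 8.20 CPM with DOCA-salt (0.441-fold, 0.303 to 0.626). Kcnk1 was lower by 0.519-fold (0.493 to 0.546) in sham and 0.669-fold (0.644 to 0.695) with DOCA-salt. Kcnd2 and Kcnj3 were higher in sham by 1.96-fold (1.86 to 2.07) and 2.92-fold (2.22 to 3.83), beside 0.942-fold and 1.41-fold with DOCA-salt; the difference between the pairs was not tested. Kcna1, Kcna6 and Kcnk13 in astrocytes stood at 1.26% to 14.0% of the oligodendrocyte level, beside 2.11% to 7.36% for the 7 oligodendrocyte markers, which were at medians of 3.97%, 6.15%, 3.43% and 3.09% over the libraries; their part in these 3 results was not tested.

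In the other large classes the members that were lower in hippocampus in both pairs were mainly genes led by astrocytes. They were Kcnd2, Kcnj16, Kcnk1, Kcnk2, Kcnn2 and Kcnn3 of 23 members in microglia (3.38% of all genes), Kcnd2, Kcnj16, Kcnk1, Kcnn2, Kcnn3 and Kcnt1 of 29 in oligodendrocytes (2.92%), and Kcnj16, Kcnk1, Kcnk2 and Kcnn2 of 7 in endothelial cells (2.56%). The 1 member higher in both pairs was Kcna1 in microglia (1.36%). The values for oligodendrocytes and endothelial cells were 0 members (0.613% and 0.468%). Kcna1 in microglia stood at 2.04%, 2.98%, 1.62% and 1.48% of its oligodendrocyte level. The 7 oligodendrocyte markers stood there at medians of 3.42%, 5.14%, 2.78% and 2.48%, and their part in the Kcna1 result was not tested. Kcnk1 in microglia measured 6.96, 5.24, 26.9 and 26.0 CPM, that is 2.18%, 1.52%, 5.64% and 3.90% of its astrocyte level. The hippocampus libraries were the low ones, and they were also those with fewer astrocytes, 1717 and 889 beside 4067 and 3421. In oligodendrocytes Kcnk1 was at 2.27%, 1.62%, 4.46% and 3.84%, and the 7 astrocyte markers had medians of 1.67%, 0.891%, 3.91% and 3.37%. Their part in these results was not tested.

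**Figure D4:**
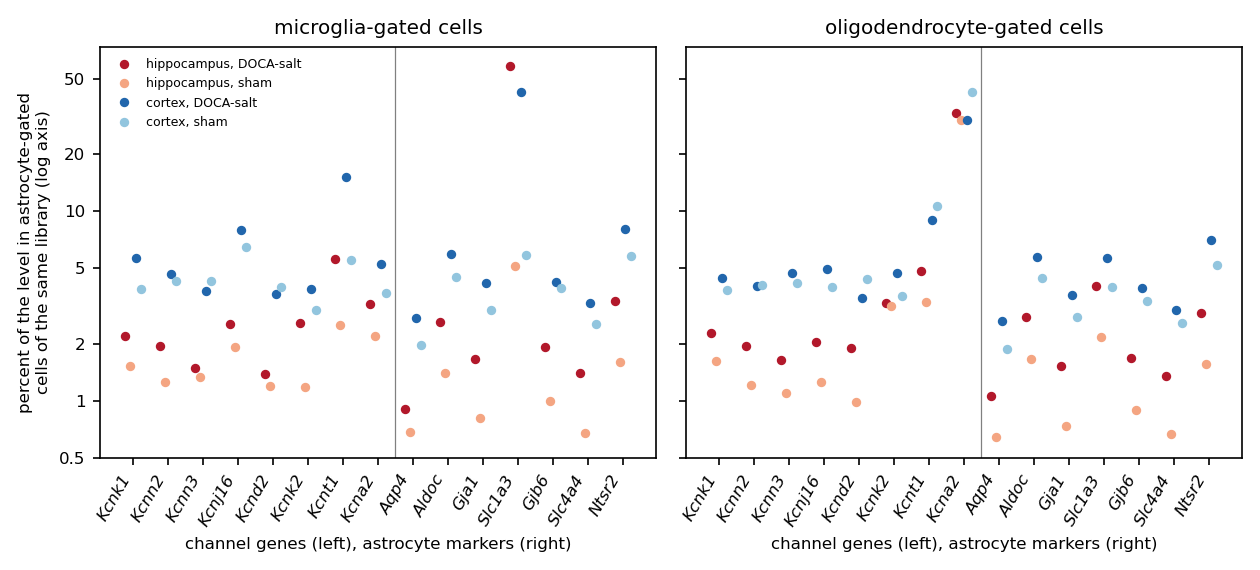
Level of 8 channel genes (left of the line) and of the 7 astrocyte markers (right) in microglia and oligodendrocytes, as a percent of the level in astrocytes of the same library (log axis), 1 point per library. Both sets of genes lie mostly between 0.5% and 10%, with the cortex libraries above the hippocampus libraries; Kcna2 in oligodendrocytes, and Slc1a3 in microglia of the DOCA-salt libraries, lie far above, and Kcnt1 in microglia of cortex DOCA-salt is at 15.2%.

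Partner proteins of the channels were read from a list of 20 genes. With DOCA-salt against sham, 1 of the 31 partner pairs in hippocampus was higher and 1 lower, beside 5.51% and 3.19% of the pairs of all genes, and 2 of 30 in cortex were higher and none lower, beside 5.48% and 2.46%. No partner was beyond 1.5-fold in the same class of both tissues. Dpp6, a transmembrane subunit of Kcnd channels, was lower in hippocampus astrocytes, at 2.38 against 5.80 CPM (0.410-fold, 0.229 to 0.729), from 25 and 28 UMIs, and at 4.10 against 3.00 CPM in cortex astrocytes (1.37-fold, 0.992 to 1.89), from 100 and 66 UMIs. Cntnap2, which clusters Kcna channels beside the node, was at 2.35 against 1.19 CPM in cortex oligodendrocytes (1.98-fold, 1.15 to 3.47) and at 4.49 against 3.02 CPM in those of hippocampus (1.49-fold, 1.13 to 1.97), just under the 1.5-fold rule. Dtna and Dag1, of the complex that anchors Kcnj10 at astrocyte endfeet, measured 603 to 747 and 187 to 204 CPM in astrocytes, and neither was beyond 1.5-fold there in any comparison. In hippocampus endothelial cells Dtna was higher with DOCA-salt (2.04-fold, 1.36 to 3.12), at 20.2 against 9.90 CPM. It was lower in hippocampus than cortex in microglia (0.369-fold in sham, 0.529-fold with DOCA-salt) and endothelial cells (0.331-fold and 0.488-fold). The part of astrocyte RNA in these Dtna results was not tested. The pacemaker channel Hcn2, a related channel that passes sodium as well as potassium, was led by oligodendrocytes with 228, 174, 128 and 110 CPM. In oligodendrocytes Hcn2 was higher in hippocampus by 1.58-fold (1.504 to 1.66) in sham and 1.78-fold (1.70 to 1.88) with DOCA-salt. The same direction held at lower levels in microglia (2.44-fold and 1.72-fold), astrocytes (2.20-fold and 1.67-fold) and endothelial cells (1.73-fold and 1.94-fold). Hcn2 measured 11.6, 14.0, 6.77 and 5.74 CPM in microglia and 14.2, 16.6, 8.49 and 7.54 CPM in astrocytes. In endothelial cells it measured 30.4, 28.3, 15.7 and 16.3 CPM. The oligodendrocyte markers, summed, were at 730, 1182, 583 and 611 CPM in microglia. They were at 749, 1266, 601 and 659 CPM in astrocytes and 724, 1301, 599 and 661 CPM in endothelial cells. Their part in these Hcn2 results was not tested. Cntnap2 in astrocytes was higher in hippocampus by 2.76-fold (2.08 to 3.66) and 3.61-fold (2.96 to 4.41). It was also higher there in oligodendrocytes (2.53-fold and 1.91-fold) and microglia (1.60-fold and 1.52-fold). Abcc8, the regulatory subunit of the pancreatic form of the ATP-closed channel, held 27 UMIs in neurons, 6 in oligodendrocytes and 1 or 2 in each of 4 other classes, and Amigo3, of a family that associates with Kcnb channels, had no UMI in the gated classes.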

How the data were processed

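The deposited files hold UMI counts per gene and barcode for each library, as whole numbers without normalization. Per the submitters' processing notes, the tools were STAR, Subread, fastp and Seurat, and the build was GRCm38; versions, annotation, strand and cell filter are not given in the sources used here. A barcode was kept as a cell from 300 detected genes upward, unless over 20% of its UMIs were mitochondrial. Each cell was scored for 18 classes as the mean of ln(1 + counts per 10000) over 7 markers, relative to the median score of clear cells of the class, and was assigned where its own relative score reached 0.5 with 3 markers seen and every other stayed below 0.5. Cells of more than 1 class, candidate doublets, were left out, and no doublet caller was run. The counts of all cells gated to 1 class in 1 library were added up and divided by their total to give counts per 1000000 UMIs (CPM). Ratios carry exact 95% (Clopper-Pearson) intervals of counting error, and 1 library per group allows no test. The members, lists and markers were chosen with earlier results of these data known. Named genes were up to 4 members led by a class with at least 50 UMIs in it, the members with ratio bounds farthest from 1 in each large class, and 18 members and 20 partners named whatever their values; further members named in the text were chosen after their values were seen. A few genes that this rule names are not reported here. Gene positions are from GENCODE vM21 (GRCm38), matched by gene identifier for 76 of 76 members, and promoters from RefSeq (GRCm38.p6). The counting was checked on simulated data. Python 3.11.15, numpy 2.4.6, scipy 1.17.1, pandas 2.3.3 and matplotlib 3.10.9 were used.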

Additional observations from a re-analysis of the deposited data

How the results depend on the processing

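Counts of member and class pairs beyond 1.5-fold moved with the minimum of UMIs and the fold, as fewer or more pairs were then counted. Shares of all genes are given only for the main setting and the 20% rule. The other counts therefore say nothing about the members against other genes. In hippocampus (DOCA-salt higher and lower than sham) there were 34 and 18 with at least 20 UMIs, 66 and 54 with no minimum, 3 and 4 at 2-fold, 6 higher with at least 100 UMIs and 3 higher with cells thinned to 2000 UMIs; 15 were lower with cells of more than 1 class kept. In cortex there were 26 and 13, 57 and 39, 4 and 2, 4 higher with at least 100 UMIs and 5 higher after thinning. Between the sham libraries (hippocampus higher and lower) there were 36 and 38 with at least 20 UMIs, 68 and 67 with no minimum, 14 and 13 with at least 100, 12 and 8 after thinning, and 10 higher at 2-fold. Between the DOCA-salt libraries there were 29 higher with at least 20 UMIs, 52 and 68 with no minimum, 15 lower with at least 100, 4 and 12 after thinning, and 5 and 14 at 2-fold. Alternatives chosen after seeing the data were pairs at 20% or more of the highest class (4 higher in hippocampus, 6 higher in cortex, 5 lower between sham libraries, 9 and 3 between DOCA-salt libraries) and class means over libraries with 20 cells, which left 50 members with the same leading class. Pooling the libraries left 66, and leaving out 1 library 63 to 71. Of 74 log2 ratios of named members, thinning left 27 the same, moved 8 without a change of sign and reversed 1. The rest could not be given after thinning. The reversed ratio was that of Kcnu1 in cortex oligodendrocytes, at 0.087, and the cause was not tested. Keeping cells of more than 1 class moved 3 ratios, the stricter gate 3 and equal weight per cell 2. Some ratios could not be given under the stricter gate, with at least 100 UMIs or after thinning, where too few UMIs were left. The log2 ratio of Kcnma1 in oligodendrocytes (DOCA-salt over sham) stayed between 1.31 and 1.63 in hippocampus and between 1.25 and 1.58 in cortex under the alternatives run. No paired analysis was possible because each group held 1 library. Depth limits members with few UMIs, and intervals do not cover variation between mice.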
